A study of Mus musculus with 6 samples.

Results

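Osteoclasts, the cells that resorb bone, form from monocyte precursors on signals that osteoblast-lineage cells and osteocytes give. RANKL, the product of Tnfsf11, binds the receptor RANK (Tnfrsf11a) on the precursors and starts NF-κB, AP-1 and NFATc1 signalling, while the decoy receptor OPG (Tnfrsf11b) is secreted and keeps RANKL from RANK. M-CSF (Csf1) and IL-34 (Il34) share the receptor CSF1R, which keeps the precursors alive and dividing, and semaphorin 3A (Sema3a) and the pair of ephrin-B2 (Efnb2) and EphB4 (Ephb4) carry signals between osteoblasts and osteoclasts. The 8 genes named here by symbol were followed in bulk RNA-seq of parietal bone, a flat bone of the skull vault, as 8 of the 44556 gene symbols in the count tables. They were chosen by name, and each symbol had 1 entry in every library.

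The libraries came from newborn C57BL/6 littermates, 3 labelled OsxCre and 3 labelled OsxCre;Stat3fl/fl. Both genotypes carried Cre recombinase driven by Osx (Sp7), which is active mainly in osteoblast precursors, and the second also carried 2 Stat3 alleles with loxP sites, from which Cre removes exons in the cells where it acts. Osteoclast precursors, the cells that hold RANK and CSF1R, are thus not the cells in which this Cre is meant to act. The comparison addressed whether loss of Stat3 from the osteoblast lineage goes with a change in the signals these cells send to osteoclasts. There were 3 mice and 3 libraries of each genotype, all from littermates, so p-values measure the spread between the libraries of these few animals. In whole bone, fewer cells of a type and less RNA per cell cannot be told apart.

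Depth was between 8193651 and 12080044 counts per library, and TMM scaling in edgeR gave factors from 0.933 to 1.04. Of all genes, 15600 had enough counts to be tested, and 196 of them (1.26%) passed an adjusted p of 0.05 in edgeR's quasi-likelihood test, 121 higher and 75 lower in the libraries labelled OsxCre;Stat3fl/fl. The targeted gene itself did not follow the labels. Stat3 stood at 149, 134 and 141 CPM (counts relative to the scaled library size) in the OsxCre libraries and at 152, 154 and 155 CPM in those labelled OsxCre;Stat3fl/fl, a log2 fold change of 0.12 with an adjusted p of 0.442 by edgeR's quasi-likelihood test. These counts cover the whole gene in all cells of the bone and cannot show whether the floxed exons were lost, so directions below are between labels. All 6 libraries had 7333 to 12392 counts of Xist, the RNA of the inactive X chromosome, and at most 1 count of each of 4 Y-linked genes, although the paper describes male newborns.

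All 8 genes had enough counts to be tested and none passed the threshold. By edgeR's quasi-likelihood test the count was 0 of 8 at an adjusted p under 0.05, against 1.26% of all genes tested, and 0 of 8 at an unadjusted p under 0.05, against 16.4%. DESeq2's Wald test and limma-voom also called 0 of the 8. The values of 1 of the 8 did not overlap between genotypes, against 23.0% of all genes tested. In sign 5 were higher and 3 lower in the libraries labelled OsxCre;Stat3fl/fl, although Efnb2 changed sign when libraries were scaled by their totals alone, and the median log2 fold change of the 8 was 0.08, beside 0.00 for all genes tested. The 95% intervals of all 8 fold changes included no change and lay within 2-fold either way, and those of 5 lay within 1.5-fold.

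The start regions of 3 members are shown because the allele under study removes a DNA-binding factor, and STAT dimers are known to bind the palindrome TTCNNNGAA. They are the ligands Tnfsf11 (chr14:78308044-78308293, minus strand) and Csf1 (chr3:107760470-107760719, minus strand) and the receptor gene Tnfrsf11a (chr1:105780473-105780722, plus strand), each as the 250 bases before a RefSeq transcript start on GRCm38.p6, read 5′ to 3′, with capitals for a match to any of 3 motifs searched, which of these 3 stretches only that of Tnfsf11 holds (TATAAA, read on the other strand).
Tnfsf11: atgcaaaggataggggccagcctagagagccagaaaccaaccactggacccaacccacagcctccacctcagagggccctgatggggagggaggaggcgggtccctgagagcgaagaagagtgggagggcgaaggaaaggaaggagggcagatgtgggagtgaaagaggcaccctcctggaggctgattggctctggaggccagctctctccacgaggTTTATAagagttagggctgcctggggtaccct
Tnfrsf11a: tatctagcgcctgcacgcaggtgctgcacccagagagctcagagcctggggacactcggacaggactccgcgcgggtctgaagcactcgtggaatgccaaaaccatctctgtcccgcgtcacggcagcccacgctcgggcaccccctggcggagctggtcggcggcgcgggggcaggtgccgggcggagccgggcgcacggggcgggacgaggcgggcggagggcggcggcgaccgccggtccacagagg
Csf1: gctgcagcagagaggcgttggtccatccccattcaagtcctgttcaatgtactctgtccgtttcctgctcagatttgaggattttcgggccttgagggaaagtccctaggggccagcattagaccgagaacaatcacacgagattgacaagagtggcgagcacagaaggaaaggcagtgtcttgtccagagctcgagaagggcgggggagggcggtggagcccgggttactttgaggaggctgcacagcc
RefSeq sequences were matched for 6 of the 8 members, and Tnfrsf11b and Il34 had no entry. On either strand, TTCNNNGAA was in 0 of the 6 promoters, as against 7.02% of 32851 RefSeq promoters of this length. TGTGGT, the core that Runx factors bind, was in 1 of the 6 (Sema3a), against 14.0% of all, and TATAAA was in 2 of the 6, against 12.4%. The Sema3a stretch (chr5:13396534-13396783, plus strand) lies inside the gene, which starts at 13124822, so it precedes an internal transcript start. The TATAAA matches were on the opposite strand, 32 to 27 bases before the start in Tnfsf11 and 30 to 25 bases before it in Efnb2. No matches of different motifs overlapped, and a missing match says only that these letters are not in this stretch.

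Compared per length, as CPM per kilobase of the longest protein-coding transcript (GENCODE on NCBIM37), Ephb4 was the most abundant of the 8, with a mean of 28.4 over the 6 libraries. Csf1 followed at 20.5 and Efnb2 at 10.6, and the ranges of these 3 over libraries did not overlap each other or the next gene. Il34 at 5.29, Tnfrsf11b at 4.94, Sema3a at 4.57 and Tnfsf11 at 3.21 CPM per kilobase each overlapped the next gene in the order. Tnfrsf11a was lowest at 2.37 CPM per kilobase, and its level was under that of Tnfsf11 in 5 of the 6 libraries. With all exons of a gene as its length in place of the longest transcript, the first 3 and the last kept their places, and the order within the other 4 changed.

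Tnfsf11, the gene of RANKL, stood at 7.02, 7.81 and 6.78 CPM in OsxCre replicates 1 to 3 and at 7.78, 3.67 and 10 CPM in the corresponding libraries labelled OsxCre;Stat3fl/fl. The OsxCre values lay inside the wider range of the other genotype, which held both the lowest library (replicate 2) and the highest (replicate 3). That replicate 2 rested on 30 reads of Tnfsf11, whereas the other 5 had 65 to 86. The log2 fold change was -0.01 (standard error 0.33), a fold of 0.996 with a 95% interval from 0.588 to 1.69, and the adjusted p was 0.996 by edgeR's quasi-likelihood test. The direction turned with single libraries, to a log2 fold change of 0.31 (adjusted p = 0.511, edgeR) without OsxCre;Stat3fl/fl replicate 2 and to 0.05 without OsxCre replicate 2.

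Tnfrsf11b, the gene of the decoy receptor OPG, stood at 17.9, 11.4 and 12.7 CPM in the OsxCre libraries and at 9.58, 16.0 and 16.0 CPM in those labelled OsxCre;Stat3fl/fl. The genotypes overlapped, and each held values both high and low, with a coefficient of variation of 24.7% in the first and 26.7% in the second. The log2 fold change was -0.02 (standard error 0.25), with a 95% interval from 0.665 to 1.47 as a fold and an adjusted p of 0.987 by edgeR's quasi-likelihood test. It became 0.21 without OsxCre replicate 1, the highest library, and 0.19 without OsxCre;Stat3fl/fl replicate 1, the lowest.

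**Figure D1:**
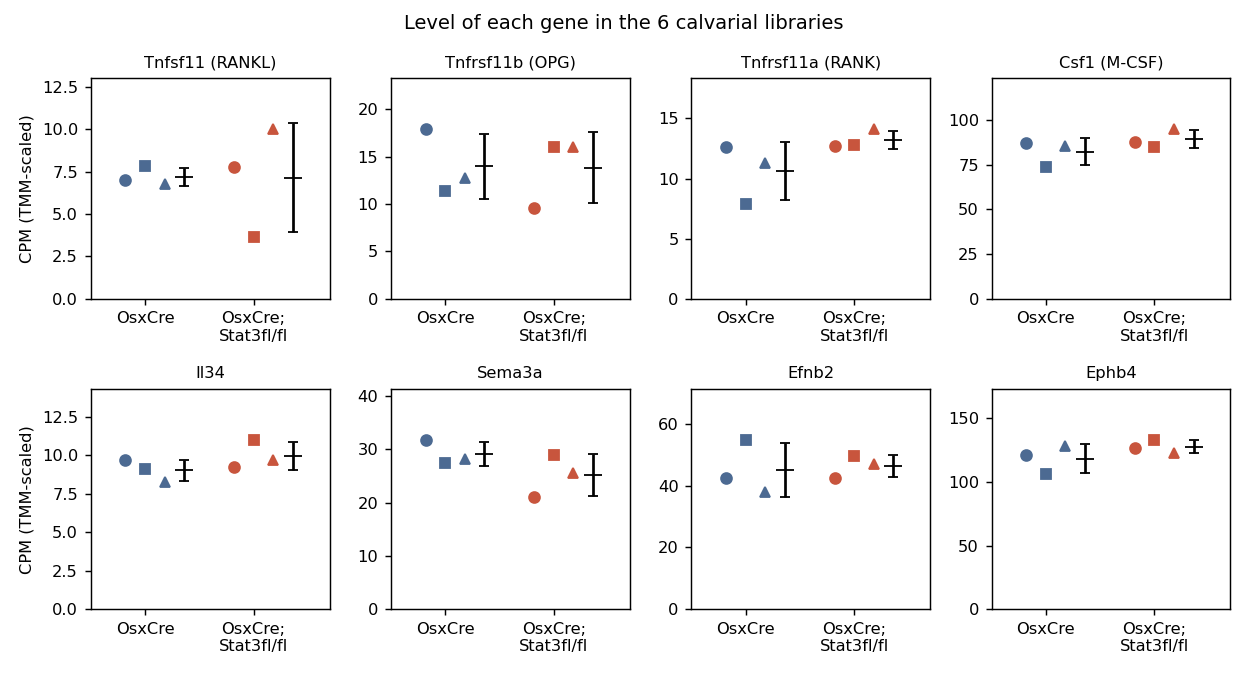
TMM-scaled CPM (vertical axes, from 0) of the 8 genes in the 3 OsxCre libraries (blue) and the 3 libraries labelled OsxCre;Stat3fl/fl (red), with circles, squares and triangles for replicates 1, 2 and 3 and black bars for the mean ± SD of each genotype. The genotypes overlap in each panel but that of Tnfrsf11a, where the lowest red point (12.7 CPM) is just above the highest blue point (12.6 CPM).

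The balance of both genes is usually read as the RANKL to OPG ratio, and within a library it needs no scaling. In reads, the ratio of Tnfsf11 to Tnfrsf11b was 0.392, 0.687 and 0.533 in OsxCre replicates 1, 2 and 3. In the libraries labelled OsxCre;Stat3fl/fl it was 0.812, 0.229 and 0.628. The highest and the lowest of the 6 ratios were thus both in this genotype, and they differed 3.55-fold, against 1.75-fold among the OsxCre libraries. Their exact (Clopper-Pearson) 95% intervals, which cover counting error only, ran from 0.577 to 1.14 and from 0.149 to 0.343 and did not meet.

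On the log2 scale the ratio averaged -0.93 ± 0.406 (SD, n = 3) in OsxCre and -1.03 ± 0.965 (SD, n = 3) in the libraries labelled OsxCre;Stat3fl/fl. The difference of -0.10 was smaller than either SD and had p = 0.9 in a two-sided exact permutation test, which cannot go below 0.1 with 3 libraries against 3. Summed over libraries, 234 Tnfsf11 reads stood against 456 Tnfrsf11b reads in OsxCre and 181 against 348 in the other genotype, a ratio of 0.513 and of 0.52. The difference of the mean log2 ratios became 0.45 without OsxCre;Stat3fl/fl replicate 2 and 0.10 without OsxCre replicate 2. Per kilobase of transcript the 6 ratios ran from 0.289 to 1.02, so that the decoy receptor was the more abundant transcript in 5 of the 6 libraries.

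**Figure D2:**
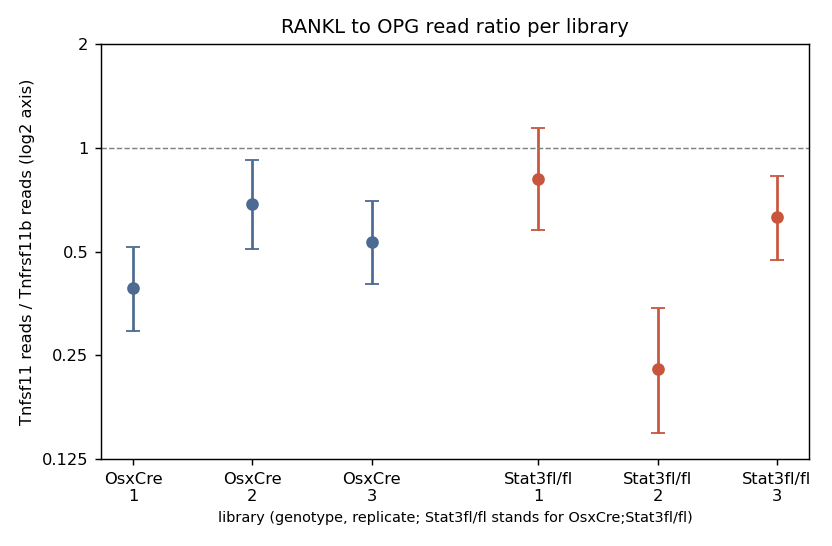
Reads of Tnfsf11 divided by reads of Tnfrsf11b (vertical log2 axis) in each of the 6 libraries, OsxCre in blue and OsxCre;Stat3fl/fl in red, with exact 95% intervals for counting error as bars and equal reads as the dashed line. The red points span 0.229 to 0.812 and enclose the blue points, which span 0.392 to 0.687.

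Tnfrsf11a, the gene of the receptor RANK, was the member whose genotypes did not overlap. It stood at 12.6, 7.91 and 11.3 CPM in the OsxCre libraries and at 12.7, 12.8 and 14.1 CPM in those labelled OsxCre;Stat3fl/fl. The separation was narrow, since OsxCre replicate 1 and OsxCre;Stat3fl/fl replicate 1 differed by less than their counting error. The log2 fold change was 0.32 (standard error 0.19), a fold of 1.24 with a 95% interval from 0.919 to 1.68, and the adjusted p was 0.458 by edgeR's quasi-likelihood test. Without OsxCre replicate 2, the lowest library, it was 0.14, and the same test gave an adjusted p of 0.75. Of all genes tested, 24.5% had a larger absolute log2 fold change than 0.32. RANK is made by myeloid cells. The summed level of a macrophage marker list, most of it from C1qa, C1qb and C1qc, also did not overlap (389 to 410 CPM in OsxCre, 470 to 503 CPM in the other genotype). That of an osteoclast list did overlap (2570 to 2980 CPM and 2310 to 3080 CPM). Their part in the Tnfrsf11a values was not tested. The ratio of Tnfsf11 to Tnfrsf11a reads was 0.556, 0.988 and 0.6 in the OsxCre libraries and 0.613, 0.286 and 0.711 in the others, which overlapped.

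Csf1, the gene of M-CSF, stood at 87.3, 73.6 and 85.6 CPM in the OsxCre libraries and at 87.7, 85.0 and 94.7 CPM in those labelled OsxCre;Stat3fl/fl. All but OsxCre replicate 2 and OsxCre;Stat3fl/fl replicate 3 lay within a few CPM of each other. With 695 to 1023 reads per library it was one of the most precisely measured members, and its log2 fold change of 0.12 (standard error 0.09) had a 95% interval from 0.939 to 1.25 as a fold. The adjusted p was 0.575 by edgeR's quasi-likelihood test, and without OsxCre replicate 2 the log2 fold change was 0.04.

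Il34, the gene of the other CSF1R ligand, stood at 9.68, 9.1 and 8.29 CPM in the OsxCre libraries and at 9.22, 11 and 9.68 CPM in those labelled OsxCre;Stat3fl/fl. The values overlapped, and the genotypes differed by 0.14 on the log2 scale (standard error 0.15; adjusted p = 0.698, edgeR's quasi-likelihood test), or by 0.08 without OsxCre;Stat3fl/fl replicate 2. Exons of Il34 overlap those of the predicted genes Gm15894 and Gm15895 on the other strand, and whether counting used the strand is not given in the sources used here. Csf1 had 7.72 to 10.3 reads for each read of Il34, or 3.32 to 4.44 per kilobase. This ratio varied 1.34-fold over the 6 libraries, less than the 3.55-fold of Tnfsf11 to Tnfrsf11b, and its mean log2 value was 3.19 in OsxCre and 3.16 in the other genotype.

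Sema3a, which encodes a semaphorin that osteoblasts secrete and that restrains osteoclast formation through neuropilin-1, stood at 31.7, 27.4 and 28.1 CPM in the OsxCre libraries. In those labelled OsxCre;Stat3fl/fl it stood at 21.0, 28.9 and 25.5 CPM, 2 of them under the whole OsxCre range and 1 inside it. The log2 fold change of -0.21 (standard error 0.13) was the most negative of the 8, with a 95% interval from 0.697 to 1.07 as a fold and an adjusted p of 0.486 by edgeR's quasi-likelihood test. It stayed negative without any one library, between -0.31 and -0.10.

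Efnb2, whose membrane ligand on osteoclasts signals to EphB4 on osteoblasts and receives a signal back, stood at 42.3, 54.7 and 38.0 CPM in the OsxCre libraries and at 42.5, 49.4 and 47.0 CPM in those labelled OsxCre;Stat3fl/fl. The second genotype lay inside the range of the first. The difference on the log2 scale was 0.04 (standard error 0.14; adjusted p = 0.922, edgeR's quasi-likelihood test), -0.01 with library totals in place of TMM, and -0.07 without OsxCre replicate 3.

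Ephb4, the receptor gene of this pair, stood at 121, 106 and 128 CPM in the OsxCre libraries and at 127, 133 and 123 CPM in those labelled OsxCre;Stat3fl/fl. The genotypes overlapped, and the log2 fold change was 0.11 (standard error 0.09), with a 95% interval from 0.94 to 1.24 as a fold and an adjusted p of 0.578 by edgeR's quasi-likelihood test. Without OsxCre replicate 2 the log2 fold change was 0.04. Its exons overlap Zan on the opposite strand. The ratio of Efnb2 to Ephb4 reads was 0.35, 0.515 and 0.297 in the OsxCre libraries and 0.334, 0.37 and 0.382 in the others, which overlapped. OsxCre replicate 2, with the highest ratio, had the highest Efnb2 and the lowest Ephb4 level of the 6. Both genes are also expressed by blood vessels, so bulk levels are not those of bone cells alone.

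**Figure D3:**
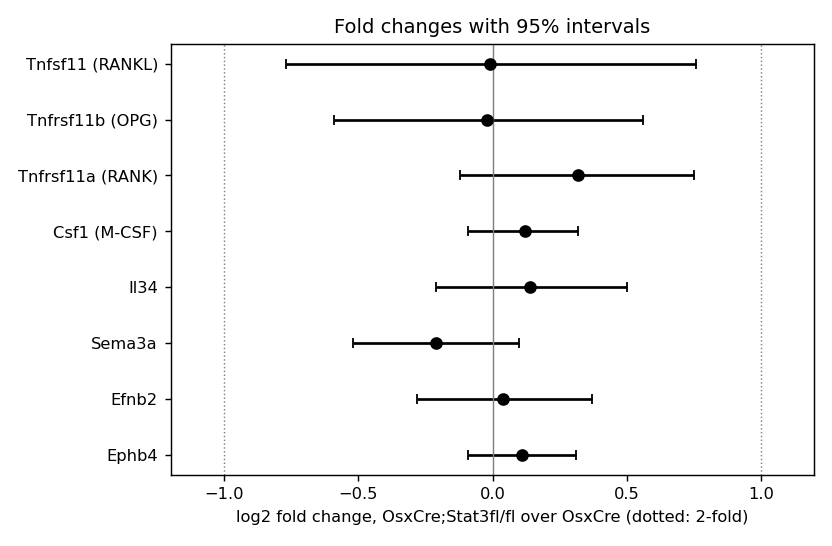
Log2 fold change of each of the 8 genes in libraries labelled OsxCre;Stat3fl/fl over OsxCre (horizontal axis), as points with 95% intervals from edgeR's quasi-likelihood fit, and dotted lines at a 2-fold change. All 8 intervals cross 0 and stay inside the dotted lines, and that of Tnfsf11 is the widest, from -0.77 to 0.76.

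The genes whose levels over the 6 libraries were most like those of a member were listed among 12172 other tested genes of at least 5 CPM, by Pearson's r of log2 CPM, as a description over n = 6 libraries that share their scaling. For Tnfsf11 these were Tcf20 (r = 0.978), Tmed8 (r = 0.977) and Otor (r = 0.967), and 74 genes were above 0.9. For Tnfrsf11b they were Mamdc2 (r = 0.987), Olfml2b (r = 0.986) and LOC102640484 (r = 0.984), with 80 genes above 0.9. For Csf1 they were Fbln5 (r = 0.985), Slc2a12 (r = 0.983) and Akap9 (r = 0.983), with 105 genes above 0.9. Among the members, Tnfrsf11a followed Csf1 (r = 0.956), both being lowest in OsxCre replicate 2 and highest in OsxCre;Stat3fl/fl replicate 3, whereas Tnfsf11 and Tnfrsf11b had r = -0.25.

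Around these 8 genes, 140 genes of 11 lists on the same signals were read, of which 121 were tested. By edgeR's quasi-likelihood test 2 of the 121 rose and 0 fell at an adjusted p under 0.05, or 1.65% against 1.26% of all genes tested. At an unadjusted p under 0.05 there were 13 higher and 11 lower, or 19.8% against 16.4%, and the median log2 fold change was 0.01. Nfkbia, which encodes the NF-κB inhibitor IκBα and is itself an NF-κB target, stood at 56.2, 58.9 and 53.1 CPM in the OsxCre libraries and at 79.5, 81.3 and 74.1 CPM in those labelled OsxCre;Stat3fl/fl (log2 fold change 0.48, adjusted p = 0.0345, edgeR). Sfrp1, a secreted Wnt inhibitor that has also been described to bind RANKL, stood at 73.3, 75.9 and 90.1 CPM and at 121, 131 and 151 CPM (log2 fold change 0.75, adjusted p = 0.0279, edgeR). Neither gene overlapped between genotypes, but the calls needed nearly all libraries. That of Nfkbia was lost without any one of the 6 libraries and with library totals in place of TMM (adjusted p = 0.0574, edgeR), and that of Sfrp1 was lost without any one of them but OsxCre replicate 3.

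**Figure D4:**
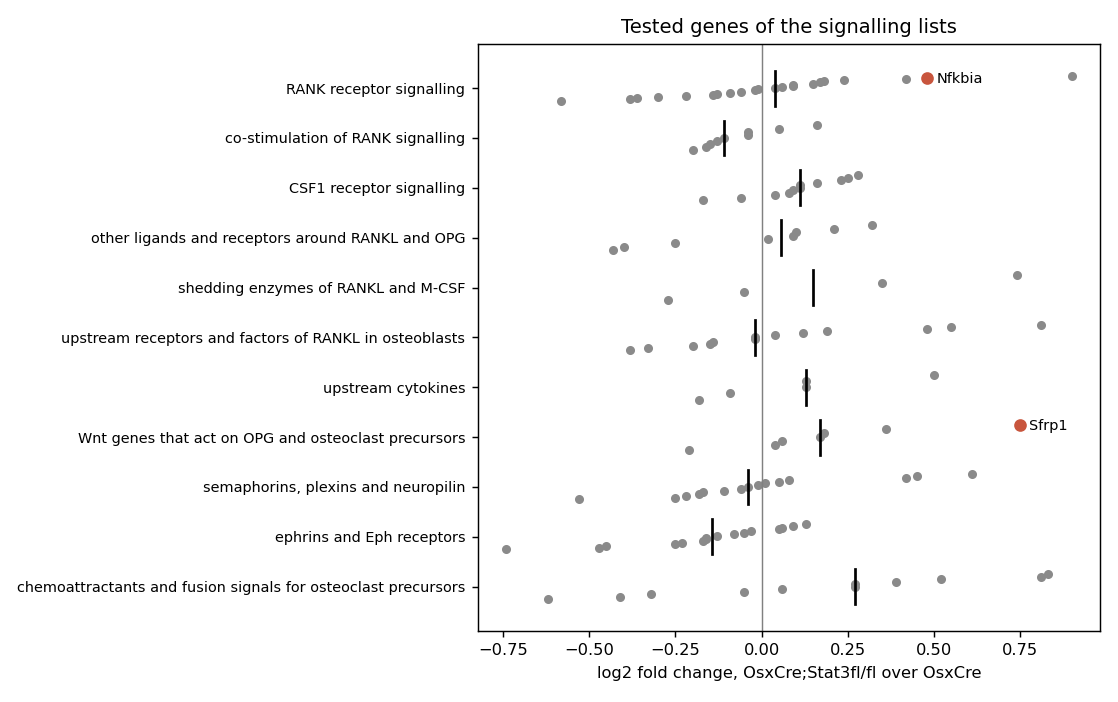
Log2 fold change in libraries labelled OsxCre;Stat3fl/fl over OsxCre (horizontal axis) of each tested gene in 11 lists around the members, 1 point per gene, with black lines at the list medians and red points for an adjusted p under 0.05. The 2 red points are Nfkbia at 0.48 and Sfrp1 at 0.75, and the list medians run from -0.15 for ephrins and Eph receptors to 0.27 for chemoattractants and fusion signals.

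Downstream of RANK, 23 of 25 genes were tested, 1 rose (Nfkbia) and 0 fell, with a median log2 fold change of 0.04. Map3k14, the NF-κB-inducing kinase of the non-canonical arm, had the next smallest p, at 19.1, 18.6 and 20 CPM against 12.6, 14.4 and 11.7 CPM (log2 fold change -0.58, adjusted p = 0.0779, edgeR), and its genotypes did not overlap. With library totals in place of TMM its adjusted p was 0.0489 by the same test. None of the 9 tested genes of 12 for co-stimulation through ITAM adaptors passed the test, with a median of -0.11, and the 2 with the smallest p were the adaptor Tyrobp (log2 fold change -0.15) and the kinase Syk (log2 fold change -0.16). Of the CSF1 receptor list, 11 of 12 were tested and 0 passed, with a median of 0.11, led by the ubiquitin ligase Cbl (log2 fold change 0.28, adjusted p = 0.264, edgeR) and the kinase subunit Pik3r1 (log2 fold change 0.25, adjusted p = 0.273, edgeR). The receptor gene Csf1r, named after its values were seen, stood at 38.0, 33.9 and 29.5 CPM against 31.7, 40.5 and 41.1 CPM, which overlapped.

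Of the chemoattractant and fusion list all 11 genes were tested and 0 passed the adjusted threshold, with the highest list median, 0.27. Its leading genes were Ocstamp, a membrane protein needed for the fusion of osteoclast precursors, and Ccr1, a chemokine receptor of monocytes and osteoclasts. Ocstamp stood at 9.87, 12.3 and 9.54 CPM in the OsxCre libraries and at 18.8, 16.6 and 20.8 CPM in the others (log2 fold change 0.83, adjusted p = 0.0509, edgeR), and Ccr1 at 23.7, 20.6 and 22.5 CPM and at 32.7, 28.0 and 35.3 CPM (log2 fold change 0.52, adjusted p = 0.0836, edgeR). The adjusted p of Ocstamp was 0.00526 by DESeq2's Wald test, 0.0485 by limma-voom and 0.0182 without the filter on low counts, and it was over 0.05 without any one library, while Ccr1 had an adjusted p of 0.0471 by DESeq2's Wald test. Over all 11 signalling lists the genotypes did not overlap for 29 of 121 tested genes, or 24.0%, against 23.0% of all genes tested. By list this ran from 0 of 9 for co-stimulation and 0 of 5 for upstream cytokines to 5 of the 11 genes here. In the RANK list it was 8 of 23. The 5 and the 8 both went in both directions. Of the 5, Ocstamp, Ccr1 and Ccl2 were higher, and Cxcr4 and Cx3cr1 were lower (log2 fold change -0.62 and -0.41). Of the 8, Nfkbia, Rela, Fos and Nfatc1 were higher, and Traf2, Tab1, Map3k14 and Chuk were lower.

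Upstream of RANKL in osteoblasts, 13 of 16 receptors and factors were tested and 0 passed, with a median log2 fold change of -0.02. In sign 6 were positive and 7 negative, and 4 did not overlap between genotypes. Of these 4, the cytokine receptor genes Osmr (log2 fold change 0.55, adjusted p = 0.0683, edgeR) and Il1r1 (log2 fold change 0.48, adjusted p = 0.119, edgeR) had the smallest p. The others were Il6ra, which was higher (log2 fold change 0.81, adjusted p = 0.179, edgeR), and Pth1r, which was lower (log2 fold change -0.33, adjusted p = 0.176, edgeR). Osmr, part of the oncostatin M receptor, passed by DESeq2's Wald test (adjusted p = 0.0168). Of 8 upstream cytokines 5 were tested, 0 passed and the median was 0.13, with Pthlh (log2 fold change 0.50) and Lif (log2 fold change 0.13) having the smallest p. Without OsxCre;Stat3fl/fl replicate 3 these became 0.02 for Pthlh and -0.01 for Lif. Il6, named after its values were seen, had only 1 to 4 reads per library.

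Of the other ligands and receptors near RANKL and OPG, 8 of 10 were tested and 0 passed, with a median of 0.06, led by the TNF receptor Tnfrsf1a (log2 fold change 0.21) and the OPG ligand TRAIL, Tnfsf10 (log2 fold change -0.43). Of 6 enzymes that can shed RANKL or M-CSF, 4 were tested and 0 passed, with a median of 0.15. The most counted sheddase, Mmp14, stood at 515, 481 and 450 CPM against 397, 378 and 420 CPM without overlap (log2 fold change -0.27, adjusted p = 0.183, edgeR), and Adam19 had 8 to 28 reads per library (log2 fold change 0.74, adjusted p = 0.394, edgeR; 0.44 without OsxCre replicate 2). Of 8 Wnt genes 7 were tested and Sfrp1 alone passed, with a median of 0.17 and Ror2 next by p (log2 fold change -0.21).

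The relatives of Sema3a and of the ephrin pair gave no call by edgeR's quasi-likelihood test. Of 17 semaphorins, plexins and neuropilins 15 were tested and 0 passed, with a median log2 fold change of -0.04. Sema3c stood at 168, 133 and 141 CPM against 83.4, 124 and 98.6 CPM without overlap (log2 fold change -0.53, adjusted p = 0.149, edgeR's quasi-likelihood test), and it passed by DESeq2's Wald test (adjusted p = 0.0284). Sema3f had a log2 fold change of -0.25. All 16 other ephrin and Eph genes were tested and 0 passed, with 12 negative and 4 positive in sign and a median of -0.15. Efna5 stood at 42.5, 40.8 and 45.4 CPM against 34.4, 25.2 and 34.5 CPM without overlap (log2 fold change -0.45, adjusted p = 0.148, edgeR), and Ephb1 had 11 to 53 reads per library (log2 fold change -0.74, adjusted p = 0.359, edgeR; -0.40 without OsxCre;Stat3fl/fl replicate 2).

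Because the members are made by different cells, marker lists of those cells were read in the same libraries, and the part of any of them in the members' values was not tested. The osteoblast list, a source of RANKL, OPG and M-CSF, was present at a summed 33400 to 43200 CPM in OsxCre and 30300 to 36900 CPM in the libraries labelled OsxCre;Stat3fl/fl. Most of this sum came from Col1a1, Col1a2 and Sparc, with OsxCre means of 13000, 13700 and 7710 CPM. All 9 of its genes were tested, and 1 fell, the matrix protein gene Ibsp (log2 fold change -0.66, adjusted p = 0.0213, edgeR), while the most counted, Col1a2, had a log2 fold change of -0.18. In sign 7 were negative, and Bglap (0.17) and Spp1 (0.10) were positive. Alpl was also lower without overlap (log2 fold change -0.54, adjusted p = 0.0578, edgeR). Of 6 osteocyte genes 5 were tested and 0 passed (185 to 290 CPM against 208 to 258 CPM, Dmp1 the most counted). In sign 4 of the 5 were negative and 1 positive. Sost was lower without overlap, at 5.5, 7.32 and 5.78 CPM against 1.68, 3.67 and 3.73 CPM (log2 fold change -1.03, adjusted p = 0.166, edgeR). None of 10 tested osteoclast genes passed (2570 to 2980 CPM against 2310 to 3080 CPM), and the most counted, the protease gene Ctsk, had a log2 fold change of 0.05. The macrophage list was higher as a sum, without overlap, at 389 to 410 CPM against 470 to 503 CPM. Most of this sum came from C1qa, C1qb and C1qc, with OsxCre means of 104, 103 and 113 CPM. Of 7 tested genes 1, the complement gene C1qb, rose (log2 fold change 0.50, adjusted p = 0.0253, edgeR). In sign 6 of the 7 were positive, and Cd14 was negative (log2 fold change -0.15). The eighth gene of the list, that of F4/80, is in the tables under its older symbol Emr1 and is not in the sum. It was not higher, at 5.88, 6.43 and 4.52 CPM in OsxCre and 4.43, 4.77 and 4.55 CPM in the other genotype (log2 fold change -0.29, adjusted p = 0.543, edgeR).

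Lymphocytes, another source of RANKL, were scarce. The T cell list summed to 5.88 to 7.81 CPM against 6.47 to 9.05 CPM, with Cd8a at 0 in every library, at most 3 reads of Cd3e, Cd3d or Cd3g in any, and Cd4 the most counted, and the B cell list to 12.2 to 19.6 CPM against 12.6 to 17.5 CPM, led by Cd79b. Of their tested genes (2 and 6) 0 passed. The neutrophil list was lower as a sum, without overlap, at 276 to 476 CPM against 117 to 195 CPM, and 1 of 6 tested genes, S100a9, fell (log2 fold change -1.25, adjusted p = 0.0423, edgeR). Most of this sum came from S100a8 and S100a9, with OsxCre means of 97.0 and 161 CPM. In sign 5 of the 6 were negative, and Mpo was positive (log2 fold change 0.18). The erythroid list was also lower without overlap, at 6480 to 9060 CPM against 3250 to 5880 CPM, with 0 of 6 genes passing and Hbb-bs the most counted. The skeletal muscle list was higher without overlap, at 33500 to 37700 CPM against 39600 to 58700 CPM, led by Acta1, with the myosin gene Myh3 higher (log2 fold change 1.71, adjusted p = 0.0204, edgeR) and Myh4 lower (log2 fold change -3.61, adjusted p = 3.87e-05, edgeR) among 12 tested.

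The other marker lists had 0 genes past the threshold and summed levels that overlapped. These were endothelial cells (544 to 742 CPM against 680 to 792 CPM, 6 tested, led by Pecam1), chondrocytes (1860 to 3240 CPM against 2820 to 3610 CPM, 7 tested, led by Col2a1), fibroblasts and suture mesenchyme (987 to 1150 CPM against 1010 to 1190 CPM, 8 tested, led by Dcn) and keratinocytes (5.19 to 8.16 CPM against 5.13 to 12.7 CPM, 2 tested, led by Krt10). Neuronal markers varied most between libraries of 1 genotype, from 105 to 418 CPM in OsxCre and from 30.9 to 427 CPM in the other, with 6 tested and Stmn2 the most counted. Their lowest sum was in OsxCre;Stat3fl/fl replicate 2, the library with the fewest Tnfsf11 reads, which also had the highest muscle sum (58700 CPM) and the lowest osteoclast sum (2310 CPM). Their 2 highest sums were in OsxCre;Stat3fl/fl replicate 1 (427 CPM) and OsxCre replicate 2 (418 CPM). In the first, Tnfrsf11a (12.7 CPM) and Efnb2 (42.5 CPM) lay inside the range of the other libraries. The second had the lowest Tnfrsf11a and the highest Efnb2 level. These 2 libraries also had the 2 highest ratios of Tnfsf11 to Tnfrsf11b reads (0.812 and 0.687) and the 2 lowest Tnfrsf11b levels (9.58 and 11.4 CPM). OsxCre;Stat3fl/fl replicate 3, with the next neuronal sum (286 CPM), had a ratio of 0.628 and Tnfrsf11b at 16.0 CPM. OsxCre replicates 1 and 3, both with a neuronal sum of 105 CPM, had Tnfrsf11b at 17.9 and 12.7 CPM. The lowest ratio (0.229) was in OsxCre;Stat3fl/fl replicate 2, with the lowest neuronal sum. A part of neuronal tissue in the ratio was not tested. Of the marker calls above, that of Myh4 held without any one library. Those of Ibsp and Myh3 held only without OsxCre replicate 3 or without OsxCre;Stat3fl/fl replicate 2, and those of C1qb and S100a9 were lost without any one library.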

How the data were processed

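Polyadenylated RNA per the labels (total RNA per the paper) of parietal bone was sequenced in 3 OsxCre and 3 OsxCre;Stat3fl/fl newborns. The authors deposited whole-number counts of reads per gene symbol for each library, without normalization. The submitters' processing notes name HISAT2 and GRCm38, whereas the paper's Methods name TopHat and mm9 for FPKM values that were not used here. The counting program, its annotation and its rules for shared reads are not given in the sources used here, and some broadly expressed genes had few reads (Ppia 48 to 78 per library).

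Genes were kept by filterByExpr (minimum count 10, total 15), scaled by TMM and compared with edgeR 4.0.16's quasi-likelihood test in R 4.3.3, two-sided, with Benjamini-Hochberg adjustment over 15600 genes. CPM use TMM-scaled library sizes. A difference is OsxCre;Stat3fl/fl minus OsxCre. The log2 read ratio was compared by an exact permutation test, and read ratios have Clopper-Pearson 95% intervals for counting error. Alternatives were RLE, upper quartile or total scaling, no filter, DESeq2 1.42.0, limma-voom (limma 3.58.1), the replicate number as a block, and each library left out. They were also run, after the data had been seen, for list genes past the threshold and the 2 of smallest p in each signalling list. No pair of libraries of a genotype agreed within sampling noise (chi-square per degree of freedom 7.51 to 15.6). The members and the 11 signalling and 14 marker lists were chosen with earlier results of these data known. Named genes were the members, list genes past the threshold, the 2 of smallest p in each signalling list, the most counted of each marker list, and the 3 most like Tnfsf11, Tnfrsf11b and Csf1. Csf1r, Il6, Emr1, C1qa, C1qc, Cd14, Sost, Xist, Ppia, T cell markers near 0 and other genes given for lack of overlap were named after their values were seen. So were Col1a1, Sparc, Bglap, Spp1, S100a8 and Mpo. Transcript lengths came from GENCODE on NCBIM37 and promoters from RefSeq on GRCm38.p6. Python 3.11.15, pandas 2.3.3, scipy 1.17.1 and matplotlib 3.10.9 were used.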

Additional observations from a re-analysis of the deposited data

How the results depend on the processing

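Over 13 alternatives for each of the 8 members, 0 of 104 values passed an adjusted p of 0.05 and 98 kept their direction. The exceptions were Tnfsf11, whose log2 fold change ran from -0.33 to 0.31 when single libraries were left out, Tnfrsf11b, from -0.15 to 0.21, and Efnb2, from -0.07 to 0.20 and at -0.01 with library totals; the cause was not tested. The log2 ratio difference ran from -0.46 to 0.45 and Lif from -0.01 to 0.30 when single libraries were left out. The count of all genes called, 196, was 428 without the filter, 538 by DESeq2's Wald test and between 12 and 103 with one library left out. Of the signalling lists, 2 genes were called, against 4 without the filter, 7 by DESeq2, and 0 to 2 with one library left out.

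Same-numbered libraries did not deviate together (r = -0.101, -0.518 and -0.085), so the numbers were not taken as pairs. Differently numbered libraries of the 2 genotypes ranged from r = -0.445 (OsxCre replicate 3, OsxCre;Stat3fl/fl replicate 1) to 0.508 (OsxCre replicate 2, OsxCre;Stat3fl/fl replicate 1). No fit included such a link, and its source was not tested. With the replicate block 1 gene was called in all, 0 members and 0 genes of the signalling lists, and the log2 ratio difference was -0.10. Depth was lowest for Tnfsf11, with 30 to 86 reads per library, but the standard error of its log2 fold change, 0.33, also holds the spread between libraries, since Il34, with 77 to 102 reads, had 0.15.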
